A study of Mus musculus with 2931 samples.

Results

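Venous endothelial cells (EC, the cells that line vessels) of the distal mouse lung were compared between E18.5, an embryonic stage shortly before birth, and postnatal day 1 (P1). The cells are those to which the authors gave the subtype label Venous EC in mice of both ages kept in normal air, 89 of the 2931 cells of the study. RNA was read from single cells sorted into plate wells, in libraries made with the Tn5 transposase and counted as reads without molecular identifiers. The study as a whole also holds mice of P7 and P21 in normal air and of P7 after hyperoxia. Their levels are given for reference, and both P7 groups also enter the main fit, where they add to the estimate of spread.

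Each age has 1 female and 1 male mouse name. Strain and genotype are not given in the labels, and whether a name stands for 1 animal or a pool is not stated, so p-values measure the spread between these mice, which may be technical. The female and male mice had 11 and 11 venous cells at E18.5, and 17 and 50 at P1, all from the CD31 sort gate, which selects cells carrying an endothelial surface protein. The cell names of both female mice carry the same code (DC23), while those of the male mice differ (DC30 at E18.5, DC35 at P1). The names do not state what the code stands for, and it is called a run here. The difference within the female run is therefore given beside results, as log2 of CPM + 1 (CPM, reads of a gene per 1000000 reads of the summed cells).

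Lung veins carry oxygenated blood from the capillaries to the heart, and their endothelium is marked by the nuclear receptor Nr2f2 and the receptor Ephb4. At birth the lungs fill with air, blood flow through them rises and the oxygen that venous cells meet increases. Genes of oxygen sensing, flow response, vessel tone and growth are the usual readouts of that step.

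Endothelial and venous markers were read in all 4 mice. The sum of 6 endothelial markers lay between 4545 and 5818 CPM, and Nr2f2 was read in 11 of 11, 11 of 11, 15 of 17 and 49 of 50 cells of the E18.5 female, E18.5 male, P1 female and P1 male mice, the order used below. Vwf, the blood clotting factor carrier that venous cells store, had 1927, 3083, 2309 and 1021 CPM. Lyve1, a hyaluronan receptor often used for lymphatic vessels, was high at 2977, 2236, 2410 and 2032 CPM. Of the defining lymphatic genes, Pdpn stayed at or under 0.0850 CPM, and Prox1 had 15.6, 21.6, 40.2 and 3.32 CPM. Mmrn1 had 0.195, 23.1, 0 and 1.45 CPM. Flt4, also of the lymphatic list, had 356, 397, 1324 and 8251 reads, not scaled to depth. Its fitted log2 difference, P1 against E18.5, was 1.61 (edgeR adjusted p = 0.613). Prox1 was read in 1 of 11, 1 of 11, 6 of 17 and 5 of 50 cells. The part of lymphatic cells in the other results was not tested. Marker sums of smooth muscle, fibroblasts, heart muscle, epithelium, leukocytes, blood and mesothelium were at most 45.4 CPM in any of these mice. Markers of other EC were higher. The sum of 5 capillary markers was 3613, 2320, 1703 and 2007 CPM, against 3135, 5218, 4322 and 2183 CPM for 6 venous markers. The sum of 6 arterial markers was 12.7, 158, 110 and 224 CPM. Xist was read in the female mice alone, and Ddx3y, Eif2s3y and Kdm5d of the Y chromosome in the male mice alone. The genes that the authors used to label the cells are not known, and a gene that helped to set the label is no independent readout.

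The P1 male mouse stood apart in its share of venous cells and in its summed reads. Venous cells made up 3.72% (95% exact binomial interval 1.87 to 6.55), 3.77% (1.90 to 6.64), 5.40% (3.17 to 8.5) and 21.6% (16.4 to 27.4) of the CD31-gate cells, and the intervals cover counting error only. The summed reads were 10252006, 8961866, 10940384 and 58800130. With each cell thinned to 50000 reads, the median venous cell had 3037, 2336.5, 4167 and 3639 detected genes, so more genes were seen per cell at P1 in both mice. The part of this in the differences below was not tested.

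Lmcd1 and Igfbp5 rose in venous EC from E18.5 to P1, and no gene passed the test as lower at P1. Both genes went from next to no reads before birth to between 58.3 and 183 CPM after it. Lmcd1 encodes a protein with LIM and cysteine-rich domains that restrains GATA transcription factors, and Igfbp5 a secreted protein that binds insulin-like growth factors. Of 12326 genes tested with edgeR, 2 were called higher (0.0162%) and 0 lower (0.0%) at an adjusted p under 0.05, and the unadjusted p was under 0.05 for 774 higher (6.28%) and 300 lower (2.43%). By DESeq2, the calls were 410 higher (3.33%) and 92 lower (0.746%), while limma on the mean CPM over cells gave 3 higher. The edgeR count went from 4 without either P7 mouse to 666 without the E18.5 female mouse, and it was 0 when only the mice of E18.5 and P1 were fitted. Both genes remained among the calls whichever mouse was left out.

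The promoters of these 2 genes are shown because they are the sequences next to the called changes. They are the 250 bases before the RefSeq start on GRCm38.p6, 5′ to 3′ on the strand of the gene, for Lmcd1 on chr6:112273508-112273757 (plus strand) and for Igfbp5 on chr1:72874866-72875115 (minus strand). Capitals mark CACCC or its reverse complement GGGTG, the short core bound by Krüppel-like factors.
Lmcd1: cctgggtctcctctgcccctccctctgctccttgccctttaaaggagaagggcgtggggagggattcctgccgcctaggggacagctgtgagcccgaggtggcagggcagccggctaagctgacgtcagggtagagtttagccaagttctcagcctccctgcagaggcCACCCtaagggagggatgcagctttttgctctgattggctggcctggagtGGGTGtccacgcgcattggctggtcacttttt
Igfbp5: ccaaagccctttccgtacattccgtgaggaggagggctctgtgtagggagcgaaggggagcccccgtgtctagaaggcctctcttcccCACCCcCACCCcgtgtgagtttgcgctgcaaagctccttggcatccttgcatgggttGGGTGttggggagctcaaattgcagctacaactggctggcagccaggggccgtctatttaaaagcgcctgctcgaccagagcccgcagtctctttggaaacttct

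The Lmcd1 window holds 2 such cores and the Igfbp5 window 3, and 52.0% of all 32851 promoter windows of this length hold at least 1 on either strand. Neither window holds TATAAA (in 12.4% of all windows), GGGCGG (32.7%), AGATAA (9.99%), ACGTG (16.6%) or CACGTG (6.02%), on both strands, where every CACGTG also counts as an ACGTG. These matches describe letters only.

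Lmcd1 (chromosome 6, 112273758 to 112330425) had 0, 0, 58.3 and 138 CPM, so both P1 mice lay above both E18.5 mice. It was read in 0 of 11 and 0 of 11 cells at E18.5, which over both mice allows a share of up to 13.6% of cells, and in 6 of 17 and 24 of 50 cells at P1. With 3 reads over the group as a floor, the mean CPM of the P1 mice was at least 628-fold higher (edgeR adjusted p = 0.00776, and between 1.57e-18 and 0.55 over 16 alternatives, in 15 of which it was called). Within the female run the difference was 5.89. In the other groups Lmcd1 stayed on, at 248 and 485 CPM at P7, 179 and 145 CPM at P21, and 303 and 318 CPM after hyperoxia.

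Igfbp5 (chromosome 1, 72857932 to 72874884) had 0.0975, 0, 85.7 and 183 CPM, again with no overlap between the ages. The E18.5 level rests on 1 read in 1 of 22 cells, against 11675 reads at P1 in 7 of 17 and 24 of 50 cells. The ratio of the mean CPM of the P1 mice to the pooled E18.5 level was 2578 with a counting interval from 463 to 101822 (edgeR adjusted p = 0.0357, and between 4.10e-12 and 0.55 over 16 alternatives, in 13 of which it was called). With sex as a block its adjusted p was 0.150, and within the female run the difference was 6.30. Later levels were uneven, at 138 and 30.9 CPM at P7, 102 and 0 CPM at P21, and 142 and 170 CPM after hyperoxia, where the P21 male value comes from 4 cells.

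The 2 genes were read together in some P1 cells and apart in others. Whether this differs from independent detection was not tested. In the P1 male mouse 12 of 50 cells had both, 14 had neither, and 24 had each gene. In the P1 female mouse 2 of 17 cells had both and 6 had neither. A single cell held 53.6% of the Lmcd1 reads of the P1 female mouse and 17% of those of the P1 male mouse, and 38.0% and 20.4% of the Igfbp5 reads.

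Other lung EC of the same mice showed that the 2 genes have different distributions. Lmcd1 in arterial EC I had 0, 0, 191 and 532 CPM, close in pattern to the venous cells, and in lymphatic EC 100.8 and 96.8 CPM at P1. Lymphatic EC of the E18.5 male mouse already had 200.2 CPM of Lmcd1, read in 4 of 10 cells. Early Car4- capillaries had 28.4 and 41.5 CPM of Lmcd1 at P1. Igfbp5 in arterial EC I had 0, 0, 0 and 3.23 CPM, and in Early Car4- capillaries at most 5.28 CPM. In lymphatic EC at P1 it had 298 and 53.2 CPM, so lymphatic EC also carried it. Arterial EC II of the P1 male mouse had 279 CPM of Igfbp5, read in 2 of 9 cells, and 299 CPM of Lmcd1, read in 8 of 9.

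**Figure D1:**
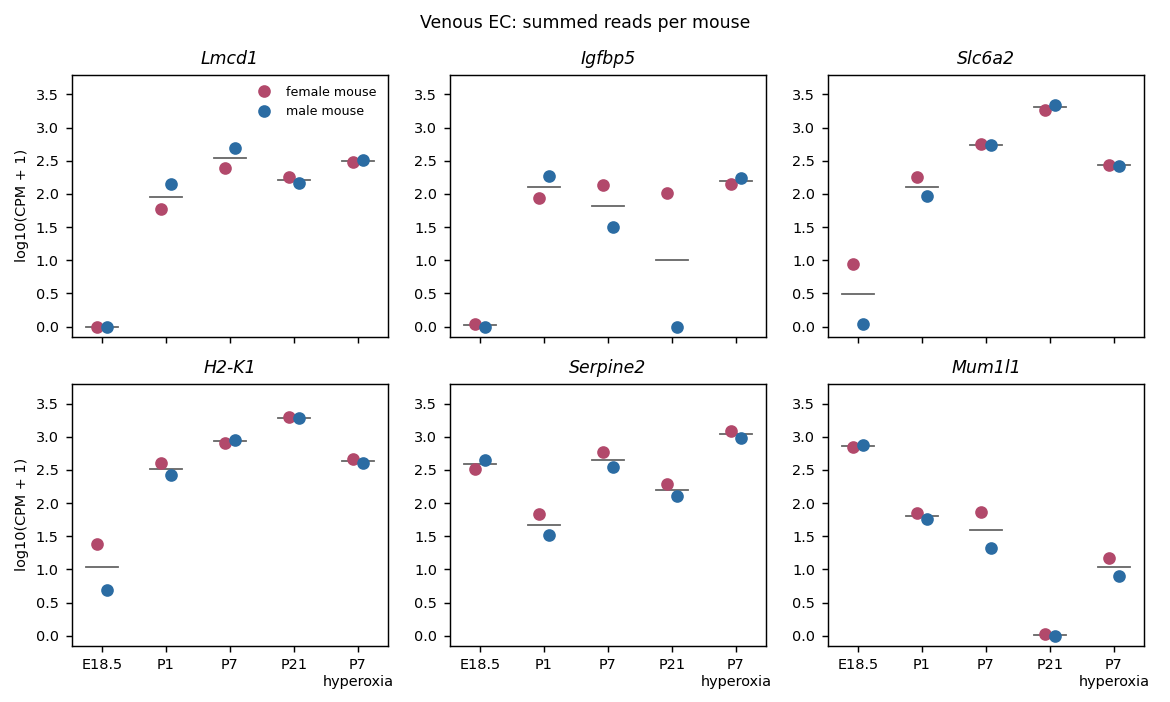
Level of 6 genes in venous EC of each mouse, as log10(CPM + 1) of the summed cells on the vertical axis against the 5 groups, with points for the female and male mouse and a bar at the mean of the 2 plotted values. Lmcd1 and Igfbp5 sit at or next to 0 at E18.5 in both mice and between 58.3 and 183 CPM at P1, while Mum1l1 has 697 and 746 CPM at E18.5 and 0.0711 and 0 CPM at P21.

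Slc6a2, the noradrenaline transporter and a member of the venous marker set used here, had few reads before birth. It had 7.71, 0.112, 179 and 91.9 CPM, read in 2 of 11, 1 of 11, 10 of 17 and 31 of 50 cells, and both P1 mice lay above both E18.5 mice. The log2 difference was 4.84 ± 1.18 (SE) and did not pass the test (edgeR adjusted p = 0.308), and within the female run it was 4.37. At equal depth it had a read in 2 of 11, 0 of 10, 8 of 16 and 24 of 50 cells. The level was 567 and 543 CPM at P7 and 1815 and 2229 CPM at P21, and 273 and 266 CPM after hyperoxia. In arterial EC I, a class that should lack the transporter, 0 reads were found in all 4 mice.

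The venous identity genes, Slc6a2 among them, did not share a direction. Of 15 genes 7 were higher and 8 lower at P1, 0 were called by edgeR and 2 by DESeq2 (Slc6a2 higher and Nrp2 lower), and the median log2 difference was -0.49, against 0.18 over all genes tested. That median turned to 0.63 within the female run, with 11 of 15 higher, to 0.086 with thinned cells and to 0.026 without the E18.5 male mouse. Over all genes the median was 0.36 within the female run, with 7246 of 12326 higher, and 0.23 with thinned cells. It was 0.81 and 0.49 without the E18.5 female or male mouse, and 0.10 and 0 without the P1 female or male mouse. List medians in these settings, here and below, are read against these values. Both P1 mice lay above both E18.5 mice for 2 of 15 (27.4% of all genes) and below for 3 of 15 (9.83% of all genes). DESeq2 called 3.33% of all genes higher and 0.746% lower, and its calls in this and later lists are read against these shares. Nrp2, a semaphorin and VEGF-C receptor, had 557, 356, 156 and 91.2 CPM, and Emcn, a surface sialomucin of veins and capillaries, had 1432, 2653, 1131 and 786 CPM. For both the ages did not overlap, with differences of -2.08 ± 0.61 (edgeR adjusted p = 0.429) and -1.22 ± 0.48 (0.551).

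Several venous genes were set by 1 mouse of P1. Ackr3, a chemokine scavenging receptor, had 484, 334, 999.6 and 221 CPM, the serine protease Prss23 had 546, 301, 1439 and 307 CPM, and Car8, a carbonic anhydrase relative, had 500, 381, 963 and 308 CPM. In each of them the P1 female mouse was the highest of the 4. Without that mouse the differences of Ackr3, Prss23 and Car8 became -0.92, -0.50 and -0.54. The P1 male mouse had more Gpihbp1, the capillary anchor of lipoprotein lipase, at 873 CPM against 88.0, 162 and 199 CPM, read in 35 of its 50 cells. The part of this in the other results was not tested.

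Besides the 2 calls, 10 genes higher at P1 were named for a small p-value and no overlap of ages. Stmn2, which loosens microtubules, had 68.3, 90.9, 758 and 1268 CPM (79.6 ± 16 against 1013 ± 361, SD, n = 2). Its log2 difference was 3.58 ± 0.58 (edgeR adjusted p = 0.126). It was read in 2 of 11, 2 of 11, 12 of 17 and 45 of 50 cells, and 1 cell held 94.4% of the reads of the E18.5 female mouse.

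Ramp3, the partner that turns the calcitonin receptor-like receptor into an adrenomedullin receptor, had 0, 0, 72.4 and 92.2 CPM, at least 527-fold higher at P1 (edgeR adjusted p = 0.126). Metrnl, a secreted meteorin relative, had 0, 0, 70.8 and 86.2 CPM, at least 503-fold higher (0.126). Neither was read in a venous cell of E18.5. At P1 Ramp3 was read in 6 of 17 and 23 of 50 cells and Metrnl in 6 of 17 and 25 of 50. Ramp3 was also read in 34 of 160 and 32 of 120 Early Car4- capillaries at P1, and in 13 of 59 and 9 of 17 Car4+ capillaries. It was read in 0 arterial EC I cells of all 4 mice. Metrnl was read in 2 of 160 and 1 of 120 Early Car4- capillaries at P1, but in 5 of 26 and 7 of 13 lymphatic EC. In arterial EC II of the P1 male mouse Metrnl was read in 3 of 9 cells.

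H2-K1, a class I antigen-presenting protein that shares sequence with other H2 genes, had 23.4, 3.91, 398 and 262 CPM, a difference of 4.37 ± 0.80 (edgeR adjusted p = 0.159). Later levels were 802 and 904 CPM at P7 and 1957 and 1921 CPM at P21. Tubb2a, a beta tubulin with a close copy, had 38.2, 20.5, 290 and 268 CPM (0.179). Wars, which charges tryptophan on its tRNA, had 1.85, 3.46, 96.7 and 55.6 CPM (0.187). The rule that named these 3 genes required both P1 mice to lie above both E18.5 mice, so that order is no finding.

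Gbp4, an interferon-induced GTPase, had 6.73, 3.35, 233 and 39.8 CPM (edgeR adjusted p = 0.187), and Casd1, which acetylates sialic acids, had 0.293, 0.112, 108 and 14.6 CPM (0.187). The P1 mice differed among themselves in both, with the female mouse higher. Mtx1, of the mitochondrial import machinery, had 3.02, 4.24, 95.5 and 163 CPM (0.169), and Nabp2, which binds single-stranded DNA, had 0.780, 0, 74.3 and 101 CPM (0.169). In those 2 the male mouse was the higher.

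**Figure D2:**
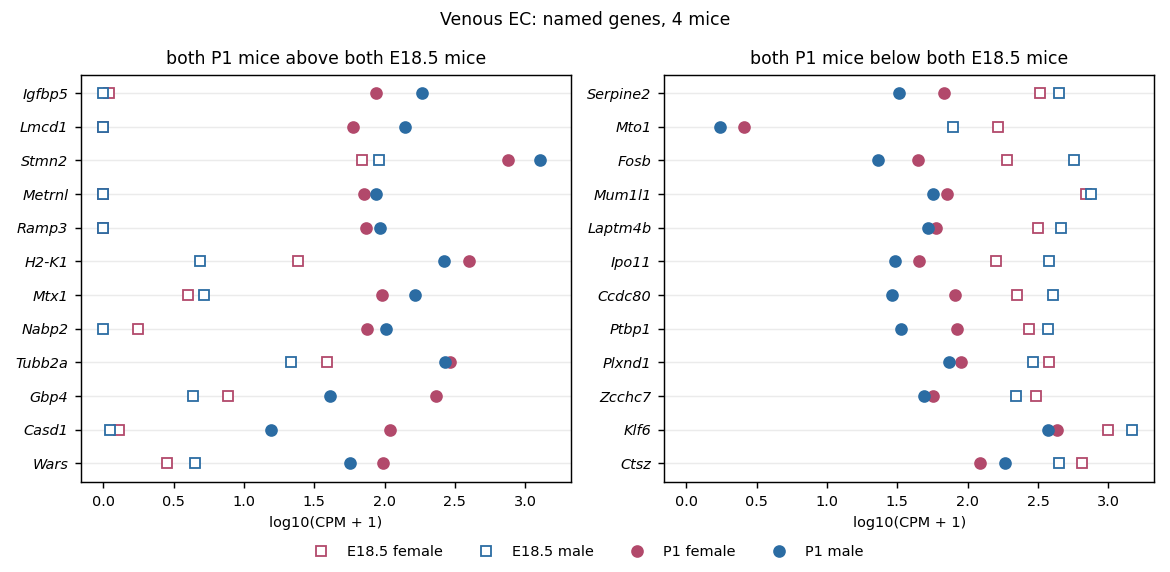
Level of 24 genes as log10(CPM + 1) on the horizontal axis, with open squares for the E18.5 mice and filled circles for the P1 mice, female and male in separate colours. The rule that chose the genes required that the ages do not overlap, so the gap is no finding, but its width can be read: Metrnl and Ramp3 run from 0 to over 70 CPM, Klf6 from 992 and 1474 CPM to 432 and 372 CPM.

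Of the 12 genes named as lower at P1, edgeR called 0. DESeq2 called 12, against 92 of all 12326 genes (0.746%). The 12 were picked from the same counts by a small edgeR p and no overlap of ages, so this count is no independent support. Serpine2, which inhibits thrombin and plasminogen activators, had 327, 444, 66.5 and 31.7 CPM (386 ± 83.0 against 49.1 ± 24.6, SD, n = 2), a difference of -3.14 ± 0.56 (edgeR adjusted p = 0.159). It was read in 10 of 11, 10 of 11, 10 of 17 and 25 of 50 cells, and in the female run the difference was -2.28. At P7 the mice had 579 and 353 CPM and after hyperoxia 1206 and 967 CPM.

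Mum1l1 had 697, 746, 70.1 and 55.9 CPM (722 ± 35 against 63.0 ± 10.05), a difference of -3.67 ± 0.73 (edgeR adjusted p = 0.169) that was -3.30 in the female run. It lies on the X chromosome (139210042 to 139238335), and its female and male mice had like levels at each of these ages. Mto1, an enzyme that modifies mitochondrial tRNA, had 165, 77.2, 1.55 and 0.748 CPM (0.167), but a single cell held 88.3% and 81.4% of its reads in the E18.5 mice. Laptm4b, a lysosomal membrane protein, had 316, 461, 58.7 and 51.1 CPM (0.209).

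The transcription factors Fosb and Klf6 of the early response list are among these 12 genes. Fosb had 189, 567, 43.5 and 22 CPM (edgeR adjusted p = 0.169) and Klf6 992, 1474, 432 and 372 CPM (0.398). Plxnd1, a semaphorin receptor of endothelium, had 376, 289, 88.8 and 73.0 CPM (0.360). Ctsz, a lysosomal protease, had 644, 446, 122 and 184 CPM (0.400), Ccdc80, a secreted matrix protein, had 224, 404, 80.8 and 28.1 CPM (0.235), and the splicing regulator Ptbp1 had 272, 371, 82.6 and 32.8 CPM (0.278). Ipo11, a nuclear import receptor, and Zcchc7 had differences of -2.98 ± 0.65 (0.209) and -2.49 ± 0.66 (0.360).

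Hypoxia response genes were lower at P1 in 15 and higher in 8 of 23 members tested, with 0 called by edgeR and 1 by DESeq2 (Pfkl, lower), and a median log2 difference of -0.55. Both P1 mice lay below both E18.5 mice for 6 of 23 (9.83% of all genes) and above for 3 (27.4%). The lower 6 include Pfkl and Eno1, 2 enzymes of glycolysis, with 221, 107, 32.5 and 36.9 CPM (-2.40 ± 0.72, edgeR adjusted p = 0.439) and 141, 244, 63.5 and 62.6 CPM (-1.72 ± 0.63, 0.542). Egln3, a prolyl hydroxylase that is itself induced by low oxygen, had 234, 25.9, 17.5 and 17.5 CPM (0.567). Ldha, the enzyme that makes lactate, overlapped between ages at 603, 739, 649 and 382 CPM. In the female run the median of the list was 0.10, with 12 of 23 members higher at P1, against 0.36 over all genes. Without the E18.5 male mouse it was -0.057, against 0.49 over all genes.

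Early response and shear genes were lower in 13 and higher in 6 of 19, with 0 called by edgeR and 2 by DESeq2 (Fosb and Klf6, lower), and a median of -0.33. The ages did not overlap in the lower direction for 6 of 19 (9.83% of all genes) and in the higher for 2 (27.4%). Within the female run the median was 0.16, with 11 of 19 higher, and without the P1 male mouse it was -0.013. Over all genes these medians were 0.36 and 0. The lower 6 include Dusp1, a phosphatase that ends MAP kinase signals, with 1999, 2998, 1396 and 633 CPM, and Jun and Fos, the partners of AP-1, with 1770, 1337, 1166 and 422 CPM and 5093, 4811, 3891 and 2524 CPM. Of the flow-induced factors, Klf2 had 762, 388, 852 and 772 CPM, with the P1 mice just above, and Klf4 overlapped at 604, 739, 448 and 698 CPM. Heat shock genes, which cell dissociation can switch on, were higher in 6 and lower in 5 of 11, and DESeq2 called 1 higher. Their median of 0.21 turned to -0.17 with thinned cells, and to -0.30 and -0.44 without the female mouse of E18.5 or of P1.

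Antigen presentation and interferon genes were higher at P1 in 17 of 23, with a median of 0.73 (0.36 without the P1 male mouse), 0 called by edgeR and 3 by DESeq2 (H2-K1, Ly6a and Ly6c1, higher). The ages did not overlap in the higher direction for 10 of 23 (27.4% of all genes) and in the lower for 2 (9.83%). Ly6a and Ly6c1, surface proteins of lung endothelium whose family members share sequence, had 34.4, 191, 478 and 1999 CPM (edgeR adjusted p = 0.317) and 78.0, 4.80, 360 and 1027 CPM (0.398). B2m, the light chain of class I molecules, had 848, 1126, 1457 and 2065 CPM, and H2-D1, a further class I gene, had 782, 1620, 2272 and 2389 CPM. In both the ages did not overlap. Cd74, of the class II pathway, was at 0 in 3 mice and at 0.833 CPM in the P1 male mouse.

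Vasomotor genes were higher in 12 and lower in 8 of 20, with a median of 0.44. Of them 0 were called by edgeR and 3 by DESeq2 (Ramp3 and Npr3 higher, Edn1 lower), which called 3.33% of all genes higher and 0.746% lower. The ages did not overlap in the higher direction for 8 of 20 (27.4% of all genes) and in the lower for 3 (9.83%). Edn1, the vasoconstrictor endothelin-1, had 657, 285, 104 and 118 CPM, a difference of -2.25 ± 0.68 (edgeR adjusted p = 0.439) with no overlap. Ddah2, which removes an inhibitor of nitric oxide synthase, had 159, 289, 431 and 619 CPM (0.555), and Npr3, the clearance receptor of natriuretic peptides, had 1.27, 0, 271 and 22.1 CPM (0.328). Both had their P1 mice above their E18.5 mice, whereas Nos3, nitric oxide synthase of endothelium, at 50.5, 221, 247 and 183 CPM, overlapped. For Npr3, 1 cell held 61.1% and 28.7% of the reads of the P1 female and male mice.

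In the insulin-like growth factor system 6 of 12 tested members were higher and 6 lower, with a median of 0.00. Igfbp5 was the only edgeR call, and DESeq2 also called Igfbp7 as higher. Igfbp7, which is abundant in vessels, had 6.15, 0, 113 and 210 CPM (5.52 ± 1.51, edgeR adjusted p = 0.392), and 1 cell held 96.8% of the E18.5 reads. Igf2 had 367, 206, 641 and 96.7 CPM, so its P1 mice were the highest and the lowest. Imprinted growth genes were lower in 8 of 11, with a median of -0.59 and 0 called by edgeR or DESeq2. Within the female run that median was 0.044, with 6 of 11 higher, and without the P1 male mouse it was -0.12. Over all genes these medians were 0.36 and 0. Grb10, which dampens insulin receptor signals, had 594, 329, 125 and 223 CPM (0.551), and H19 403, 744, 623 and 67.4 CPM.

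The BMP and TGF-beta list had 13 of 20 members higher, with 0 called by edgeR and 1 higher and 1 lower by DESeq2. Its median was 0.43, which was 0.043 without the P1 female mouse. Id1, a direct target of BMP receptors, had 113, 180, 327 and 866 CPM (1.97 ± 0.60, edgeR adjusted p = 0.447), and Bambi, a decoy receptor, had 44.2, 403, 26.6 and 40.5 CPM (0.483). Matrix genes had 16 of 24 members lower, with 0 called by edgeR and 2 higher and 1 lower by DESeq2, and a median of -0.44. That median was 0.49 within the female run, with 14 of 24 higher. It also turned with thinned cells (0.12) and without the E18.5 male (0.10) or the P1 male mouse (0.034). Over all genes the medians in these settings were 0.36, 0.23, 0.49 and 0. Col4a1, the main chain of basement membrane collagen, had 110, 119, 690 and 337 CPM (1.99 ± 0.52, 0.358), with both P1 mice above. Of the VEGF, Tie and Notch receptors 6 of 11 were lower, with Tie1 at 952, 1258, 491 and 461 CPM (0.541). In this list edgeR called 0 genes and DESeq2 called 1 lower.

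The remaining lists describe what other cells or states could add. Arterial genes had 10 of 15 members higher, with 0 called by edgeR and 1 called higher by DESeq2. Gja4 had 0, 0, 56.8 and 144 CPM, and Car4 of the capillary list had 0, 0, 38.0 and 24.7 CPM. Car4 was read in 2 of 17 and 5 of 50 P1 cells, and 1 cell held 79.6% and 71.4% of its reads. Capillary genes had 9 of 14 members higher and a median of 1.32, which was 0.17 without the P1 female mouse and 0.59 with thinned cells. Of these 14 genes 0 were called by edgeR, while DESeq2 called 4 higher (3.33% of all genes) and 0 lower (0.746%). The ages did not overlap in the higher direction for 7 of 14 (27.4% of all genes) and in the lower for 3 (9.83%). Ednrb of that list was lower at 1736, 1143, 753 and 382 CPM. Proliferation genes had 10 of 16 higher, with 0 called by edgeR and 1 called higher by DESeq2, and a median of 1.65. That median was 0.21 with thinned cells and 3.64 without the E18.5 male mouse. Mki67 had 4.58, 0, 36.3 and 3.33 CPM and Top2a 16, 0, 8.59 and 5.66 CPM.

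Leukocyte adhesion genes had 11 of 14 higher, with 0 called by edgeR and 2 called higher by DESeq2 (3.33% of all genes). Their median was 0.62, which was 0.071 without the P1 female mouse. Selp, the P-selectin of venules, had 0.975, 0, 144 and 6.16 CPM, and Ackr1, a chemokine receptor of venules, had 0, 0, 163 and 7.60 CPM (edgeR adjusted p = 0.179). A single cell held 87.5% and 54.1% of the Selp reads of the P1 female and male mice. Ackr1 was read in 3 of 17 and 1 of 50 P1 cells, and 1 cell held 50.7% of its 1787 reads in the P1 female mouse and all 447 in the P1 male mouse. The antioxidant list had 11 of 17 higher, with 0 called by edgeR and 3 called higher by DESeq2, and a median of 0.88. That median was 0.00 within the female run, with 8 of 17 higher, and 0.28 with thinned cells. In that list Nqo1 was at 0.975, 0, 59.2 and 31.2 CPM. The lymphatic list had 1 of 4 tested members higher, and the LIM and actin list 12 of 23 with a median of 0.18 and Lmcd1 the only call of edgeR and of DESeq2. Where a list holds genes with 0 reads in an age, its median with these at the floor differed, for example 1.02 in place of 1.65 for proliferation and 1.41 in place of 1.32 for capillaries.

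**Figure D3:**
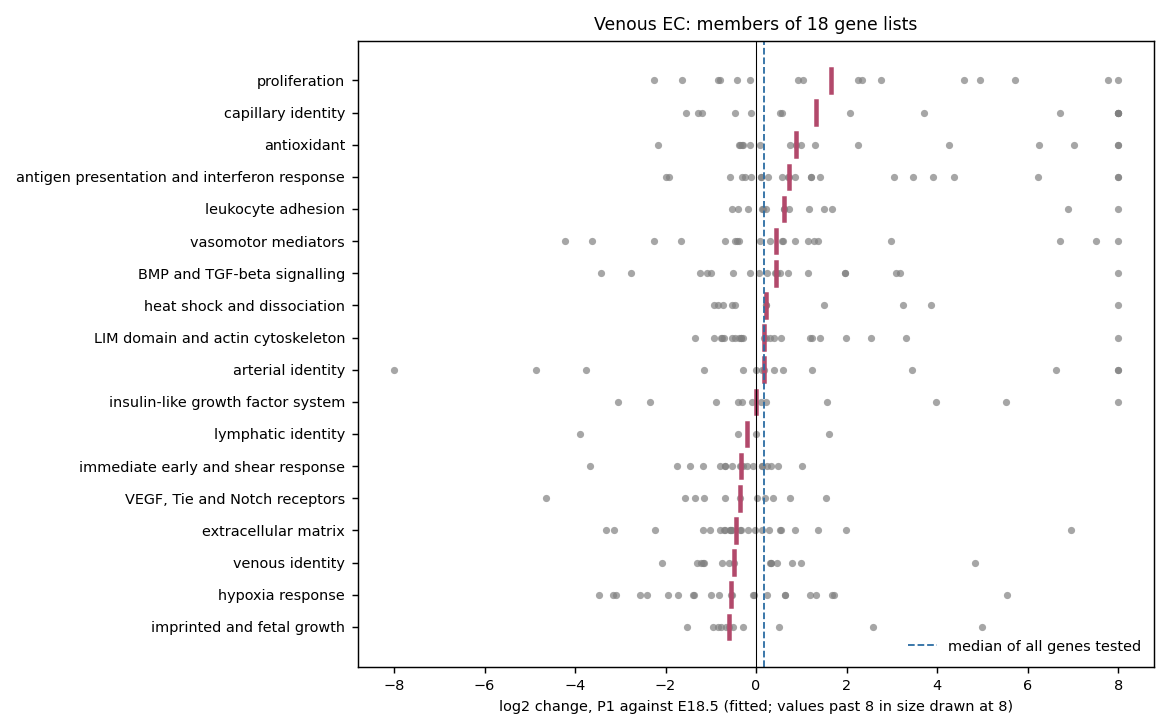
Fitted log2 difference, P1 against E18.5, of every tested member of 18 gene lists (grey points, values past 8 in size drawn at 8), the median of each list (thick bar) and the median of all 12326 genes (dashed line, 0.18). The list medians lie between -0.59 for imprinted growth genes and 1.65 for proliferation genes, and within every list single members spread over several log2 units.

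The age difference of venous EC was set against that of arterial EC I, the other large-vessel class with enough cells, by a test of the difference of differences in the same mice. The log2 difference from E18.5 to P1 was larger in venous EC for Gja4 and Sept4, and larger in arterial EC I for Plac8 and Thbd. Of 12386 genes edgeR called 4 (0.0323%). An unadjusted p under 0.05 was reached by 340, and the calls were 311 by DESeq2 and 1 by limma, which was none of these 4 genes. By limma their adjusted p was 0.0706 for Plac8, 0.644 for Gja4, and 0.786 for Sept4 and Thbd. The median of this difference over all genes was 0.63, and 0.52 with RLE normalization, so each value is read against that shift. Arterial EC I had 12, 14, 15 and 10 cells.

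Gja4, connexin 37 of arterial gap junctions, had 0, 0, 56.8 and 144 CPM in venous EC and 2069, 2623, 1470 and 1837 CPM in arterial EC I. In venous EC it was at least 642-fold higher at P1 than at E18.5, and in arterial EC I the log2 difference was -0.56 ± 0.57 (edgeR adjusted p between classes = 0.00525). In venous EC it was read in 3 of 17 and 14 of 50 cells of P1, and 1 cell held 80.5% and 54.4% of its reads. Sept4, a septin, had 0.293, 0, 133 and 32.5 CPM in venous EC, where 1 cell held 79.0% and 17.1% of its P1 reads. In arterial EC I it had 452, 605, 351 and 68.9 CPM (edgeR adjusted p between classes = 0.0364). Its edgeR adjusted p became 0.108 when the male mouse of E18.5 was left out, and 0.142 and 0.219 for the female and male mice of P1.

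Plac8, a gene of the venous list, was present in venous EC at both ages, at 123, 387, 443 and 619 CPM, and absent from arterial EC I at E18.5, at 0, 0, 400 and 175 CPM (edgeR adjusted p of the difference = 0.00525). Thbd, thrombomodulin, which turns thrombin to an anticoagulant, had 2045, 1247, 1005 and 3686 CPM in venous EC and 54.7, 31.0, 876 and 1197 CPM in arterial EC I (0.0307). The venous mice of P1 were the lowest and the highest, while in arterial EC both P1 mice were above. Its edgeR adjusted p became 0.0844 and 0.108 when the female or male mouse of E18.5 was left out, and 0.108 for the female mouse of P1.

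Within arterial EC I alone edgeR called 3 of 10250 genes (0.0293%), Plac8, Lmcd1 and Wfdc1. Wfdc1, a secreted protease inhibitor relative, had 0, 0, 106 and 256 CPM in venous EC, at least 1159-fold higher at P1, and an adjusted p of 0.0670. The difference of Lmcd1 and Wfdc1 between the classes was not called (edgeR adjusted p = 1.00 for both), which does not show that they change alike.

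**Figure D4:**
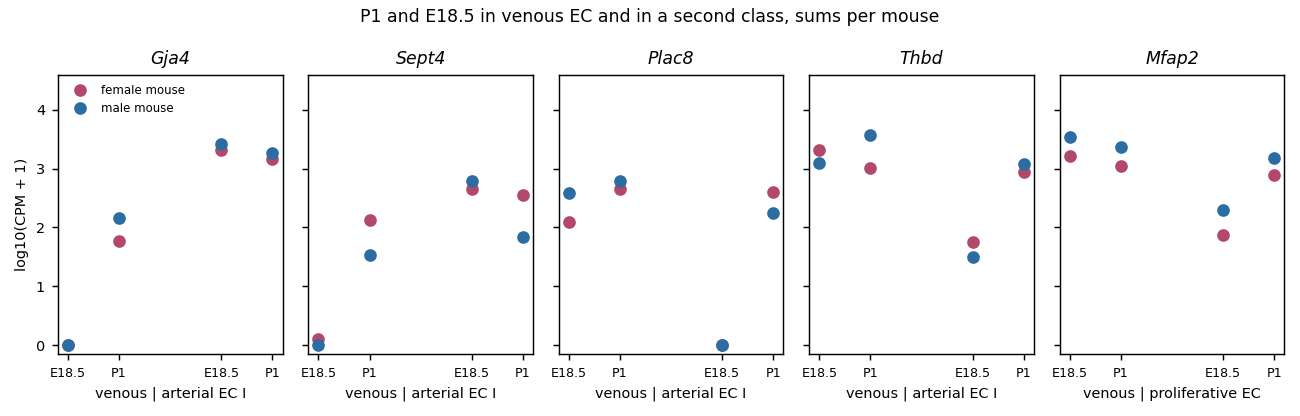
Level as log10(CPM + 1) of 5 genes at E18.5 and P1 in venous EC (left pair of positions in each panel) and in arterial EC I or, for Mfap2, proliferative EC (right pair), with 1 point per mouse. Venous EC have 0 CPM of Gja4 at E18.5 while arterial EC I have 2069 and 2623 CPM, and arterial EC I have 0 CPM of Plac8 at E18.5 while venous EC have 123 and 387 CPM.

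Against proliferative EC, a class of dividing cells with 122, 84, 13 and 9 cells, 1 of 13887 genes was called with edgeR (0.0072%) while an unadjusted p under 0.05 was reached by 1035. The calls were 1013 by DESeq2 and 1 by limma. Mfap2, a protein of elastic microfibrils, had 1636, 3387, 1093 and 2343 CPM in venous EC and 73.8, 195, 780 and 1492 CPM in proliferative EC. The venous ages overlapped, while both P1 mice were above in proliferative EC (difference -3.80 ± 0.36, edgeR adjusted p = 0.00982). The median over all genes was 1.55, and 1.26 with RLE normalization. The edgeR adjusted p became 0.0934 and 0.199 when the female or male mouse of P1 was left out.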

How the data were processed

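Reads were counted per gene and cell by the authors, and the deposited table holds raw counts with no normalization. STAR 2.5.2b and HTSeq 0.10 are named per the submitters' processing notes, whose build is a human one, so the mouse build and annotation are not given in the sources used here. Positions come from GENCODE M21 on GRCm38. Counts were summed per mouse over cells labelled Venous EC and tested with edgeR 4.0.16 in R 4.3.3 (TMM, filterByExpr, quasi-likelihood F test, 2-sided, Benjamini-Hochberg over all genes tested, called under 0.05). The fit held 8 mice of the 4 groups with at least 8 venous cells in both mice. Interactions had the mouse as a term. An exact permutation test of 2 against 2 mice cannot go below 0.333, so none was run.

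Named genes were: every call; per direction the 12 genes of smallest p with no overlap of ages, a mean of at least 50 CPM and reads in at least 25% of cells of each mouse in the higher group, leaving out predicted, Riken, ribosomal, mitochondrial and pseudogene symbols; the 3 smallest p of each list; the venous list; and called interaction genes. Other list members named were picked after their values were seen, by their known role. Members and lists were chosen with earlier results of these data known. Where an age had 0 reads, 3 reads over the group were the floor of a fold, whose numerator is the mean CPM of the mice of the other age. Counting error alone is covered by intervals and floors, as PCR copies of a molecule are not independent.

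Alternatives were DESeq2 1.42.0, limma 3.58.1, RLE, no filter, thinning to 50000 reads, CD31-gate cells, 2 ages alone, sex as a block, and each mouse left out. The letters F and M mark sex, not shared animals, and did not pair the mice. The scripts were tested on simulated data.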

Additional observations from a re-analysis of the deposited data

Results flagged for a closer look

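In 5 genes the difference between P1 and E18.5 in venous EC differed from that in another class by an interaction test with edgeR. The fitted log2 differences of differences against arterial EC I were 13.96 for Gja4, 10.60 for Sept4, -14.04 for Plac8 and -4.37 for Thbd. The first 3 rest on a class with 0 reads or few reads at E18.5, so their size depends on the prior count of the fit and is no bound. Against proliferative EC the value was -3.80 for Mfap2.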

How the results depend on the processing

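The 2 calls became 101 with no filter, 7 with thinned cells, 1 with CD31-gate cells, 0 with only E18.5 and P1 mice, 502 with DESeq2, and 4 to 666 with a mouse left out (666 without the E18.5 female, 233 without the E18.5 male, 8 and 7 without the P1 female and male, 4 without either P7 mouse, 11 and 14 without the female and male hyperoxia mouse). With sex as a replicate block 1 gene was called, and the mice were not paired by it: the female minus male differences of 2 groups correlated at 0.0124 to 0.124 over 12321 genes. The 4 arterial interaction calls became 22 with no filter, 22 with thinned cells, 311 with DESeq2, 1 with limma and 4 to 11 with a mouse left out. The 1 proliferative call became 6 with no filter, 4 with thinned cells, 3 with only E18.5 and P1 mice, 1013 with DESeq2 and 0 to 75 with a mouse left out. The cause was not tested.

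Directions turned with thinned cells for Bmp4 (0.086), and within the female run for Moxd1 (0.63), Vwf (0.26), Ephb4 (0.29), Nr2f2 (0.22), Plagl1 (0.044) and Thbd (-1.02). With a mouse left out, lowest and highest values differed in sign for Moxd1 (-1.99 and 0.026), Nr2f2 (-0.88 and 0.059), Mmrn1 (-10.45 and 1.79) and Hmox1 (-3.71 and 0.36), turned by leaving out the E18.5 male. The same held for Tek (-1.26 and 0.33, without the E18.5 female) and Thbd (-0.95 and 1.13, without the P1 male). Without the P1 female it held for Prss23 (-0.50 and 1.53), Vegfc (-0.37 and 0.87), Amigo2 (-0.48 and 1.61, also without the E18.5 female), Car8 (-0.54 and 0.90), Ackr3 (-0.92 and 1.06) and Icam1 (-0.73 and 2.01). Lmcd1 lost its call in 1 of 16 alternatives and Igfbp5 in 3. Of the 2 ages E18.5 had fewer venous cells, 22 against 67 at P1, and there 1 cell often held most reads of a gene. The female and male medians of reads per venous cell were 896138 and 666558 at E18.5, and 638382 and 1190296.5 at P1.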
